A study of Mus musculus with 3 samples.

Results

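The 34 genes described here encode enzymes and regulators of fatty acid, sterol and phospholipid synthesis. They were chosen by symbol, and 34 of the 27998 genes counted in the files are members, each found under 1 identifier. Their levels were read in 3 single-cell RNA libraries of lung cells from MMTV-HER2/Neu mice of the FvB strain, whose HER2/Neu transgene is driven by a mammary tumour virus promoter that is active mainly in mammary epithelium. Every group holds 1 library of CD45-negative cells. The early HER2-negative library holds lung cells sorted as not cancer, from mice of 14 to 18 weeks with no palpable tumour. The early HER2-positive library holds HER2-sorted cells from mice of the same age and stage, and the late HER2-positive library holds HER2-sorted cells from mice older than 20 weeks that carried primary tumours. How many animals gave each library is not stated in the labels, so stage, age, sort, animal and library cannot be told apart, and no test between groups was made.

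Fatty acid synthesis starts in the cytosol, where ATP citrate lyase makes acetyl-CoA, acetyl-CoA carboxylase makes malonyl-CoA and fatty acid synthase builds palmitate. Elongases and desaturases then modify the chain, and a branch from acetyl-CoA runs through mevalonate and squalene to cholesterol. Both arms are under the sterol regulatory element binding proteins encoded by Srebf1 and Srebf2, which INSIG1 holds back when sterols are plentiful. In the lung these pathways are best known from the alveolar type 2 (AT2) cell, which makes surfactant rich in dipalmitoyl phosphatidylcholine, and in the lactating mammary gland they make milk fat.

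Barcodes with at least 1000 unique molecular identifiers (UMIs) and under 25% of them mitochondrial were kept: 6416 in the early HER2-negative, 7622 in the early HER2-positive and 6012 in the late HER2-positive library, with median UMIs of 3166, 5318.5 and 8075. Each was put in the first class whose marker rule it met. The AT2 class held 46, 3939 and 3996 cells in that order, the airway class 1, 155 and 196, the endothelial class 5186, 1558 and 486, the mural class 221, 1352 and 931, and the fibroblast class 684, 268 and 71. A mammary class of 161 cells was found in the late library and in no other. A class of under 50 cells is not described, which leaves out AT2 and airway cells of the HER2-negative library. More than 1 class rule was met by 227, 1501 and 1161 barcodes, and 10 to 18 kept barcodes were shared between each pair of libraries. In the mural class 53.4%, 46.4% and 55.2% of cells also met the fibroblast rule, so its levels are not those of mural cells alone. Though sorted by HER2, the HER2-positive libraries held mostly cells of the lung classes, with AT2 cells alone at 51.7% of the early and 66.5% of the late barcodes. In the early library only, casein Csn3, which helped to set the mammary class, stood at 0 counts in all 7622 kept HER2-positive barcodes. That allows a share of cells with a UMI of up to 0.0394%. Macrophage markers were at 0 in the AT2 and mammary classes, and adipocyte markers summed to 0.104 CPM (UMI counts per 1000000 UMIs of a class) in early and 0.109 in late AT2 cells.

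The promoters of the members are shown first because the sterol genes went together within AT2 cells. Of the 34 members, 28 have a window in the RefSeq table of GRCm38.p6, from 250 bases before to 50 after a start listed for the gene. The only windows of Acaca (chr11:84195188-84195487) and Acacb (chr5:114165268-114165567) lie inside genes that start at 84129672 and 114146535 in GENCODE. Acacb is counted below with an NF-Y box, and Acaca without any of the motifs. Scd1, Scd2, Fdps, Fdft1, Sqle and Fads1 are named only. Motifs were searched on both strands as TCACNCCAC (a sterol regulatory element), CCAAT (an NF-Y box), GGGCGG (an Sp1 box) and CACGTG (an E-box), and none of these can overlap another of them by more than a few bases. Capitals mark the sterol regulatory element and the NF-Y boxes, in either orientation (an NF-Y box on the other strand reads ATTGG). The first 4 windows belong to genes that were higher with Scd1 in AT2 cells, and the last to Pcyt1a, which was not.
Hmgcs1: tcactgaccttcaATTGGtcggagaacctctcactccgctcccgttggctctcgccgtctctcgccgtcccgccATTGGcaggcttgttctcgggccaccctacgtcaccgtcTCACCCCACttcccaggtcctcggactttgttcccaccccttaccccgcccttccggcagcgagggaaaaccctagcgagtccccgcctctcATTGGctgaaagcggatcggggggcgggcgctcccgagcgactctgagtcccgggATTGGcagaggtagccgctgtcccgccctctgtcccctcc
Mvk: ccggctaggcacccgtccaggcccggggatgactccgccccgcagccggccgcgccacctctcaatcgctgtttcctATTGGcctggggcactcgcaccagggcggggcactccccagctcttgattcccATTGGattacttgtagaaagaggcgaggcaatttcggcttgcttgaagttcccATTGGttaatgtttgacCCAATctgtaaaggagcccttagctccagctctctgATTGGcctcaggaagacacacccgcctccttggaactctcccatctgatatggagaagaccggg
Nsdhl: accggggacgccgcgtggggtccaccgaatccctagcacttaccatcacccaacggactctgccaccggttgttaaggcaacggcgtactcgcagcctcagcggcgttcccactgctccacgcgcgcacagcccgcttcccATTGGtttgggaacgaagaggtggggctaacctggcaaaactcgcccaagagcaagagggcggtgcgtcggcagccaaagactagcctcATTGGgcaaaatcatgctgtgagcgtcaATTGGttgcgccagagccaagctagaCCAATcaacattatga
Fasn: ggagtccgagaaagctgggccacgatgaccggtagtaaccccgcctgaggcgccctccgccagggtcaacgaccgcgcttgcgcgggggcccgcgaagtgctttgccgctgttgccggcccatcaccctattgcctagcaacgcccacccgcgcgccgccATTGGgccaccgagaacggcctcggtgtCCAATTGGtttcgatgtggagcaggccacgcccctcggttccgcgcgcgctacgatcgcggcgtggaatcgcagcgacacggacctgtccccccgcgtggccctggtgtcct
Pcyt1a: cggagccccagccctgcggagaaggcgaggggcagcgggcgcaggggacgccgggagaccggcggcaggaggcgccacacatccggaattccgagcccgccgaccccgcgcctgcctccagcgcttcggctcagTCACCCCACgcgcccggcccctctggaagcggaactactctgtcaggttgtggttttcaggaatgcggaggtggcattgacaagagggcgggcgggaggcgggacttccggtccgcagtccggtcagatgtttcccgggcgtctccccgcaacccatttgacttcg
Hmgcs1 (chr13:119690101-119690400, plus strand) holds a sterol regulatory element 137 bases upstream of the start and 4 NF-Y boxes. Mvk (chr5:114444019-114444318, plus strand) holds 5 NF-Y boxes, Nsdhl (chrX:72918271-72918570, plus strand) 4 and Fasn (chr11:120824498-120824797, minus strand) 3. In Fasn the stretch CCAATTGG was counted as a box on each strand, and these overlap. Pcyt1a (chr16:32430671-32430970, plus strand) holds the same sterol regulatory element 116 bases upstream and no NF-Y box. Another window of Pcyt1a, from a later start, holds the element 215 bases upstream, and a further one does not hold it.

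The NF-Y box was found in 22 of the 28 members with a window (78.6%), against 41.1% of the 27025 genes in the table. The Sp1 box was also in 22 of 28, against 38.2% of genes, the sterol regulatory element in 2 of 28 (7.14%), against 1.44%, and the E-box in 4 of 28 (14.3%), against 8.09%. Of the 14 members with a window that were higher with Scd1, 13 held an NF-Y box, 12 an Sp1 box, 3 an E-box and 1 the sterol regulatory element. Of the 14 other members with a window, 9 held an NF-Y box, 10 an Sp1 box, 1 an E-box and 1 the sterol regulatory element. Some genes have more than 1 window, and a match in any of them was counted. A match is a string of letters in a window and not a bound site.

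In both HER2-positive libraries the module was centred on AT2 cells. Of the 34 members, 24 in the early and 22 in the late library had their highest level in the AT2 class among the 5 lung classes, and 21 did so in both. The share of all genes with their highest level in AT2 cells was not counted. A member was called higher or lower at a ratio of at least 1.5 among genes with at least 10 counts over both groups, and intervals are 95% intervals that cover counting error only. AT2 over endothelial cells, 24 members were higher in both libraries and 4 lower, where 14.3% of all 13387 genes tested were higher in both and 49.9% lower in both. Over airway cells 26 were higher and 2 lower (all genes 7.70% and 37.9%), over mural cells 22 and 2 (13.5% and 53.4%), and over fibroblasts 21 and 3 (7.63% and 49.2%). The median log2 ratio of the members lay between 0.94 and 1.79 over the 8 comparisons, and that of all genes tested between -1.02 and -0.48. A few genes take much of the AT2 total (Sftpc alone 218179 CPM in the early and 220590 in the late library), and scaling by the median of ratios moved the median of all genes up by 0.48 to 0.96 on the log2 scale in these comparisons, with the members moving alike. A 3′ UMI count needs no correction for transcript length, but how well the RNA of each gene was captured is not known, so levels of different genes compare only roughly.

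**Figure D1:**
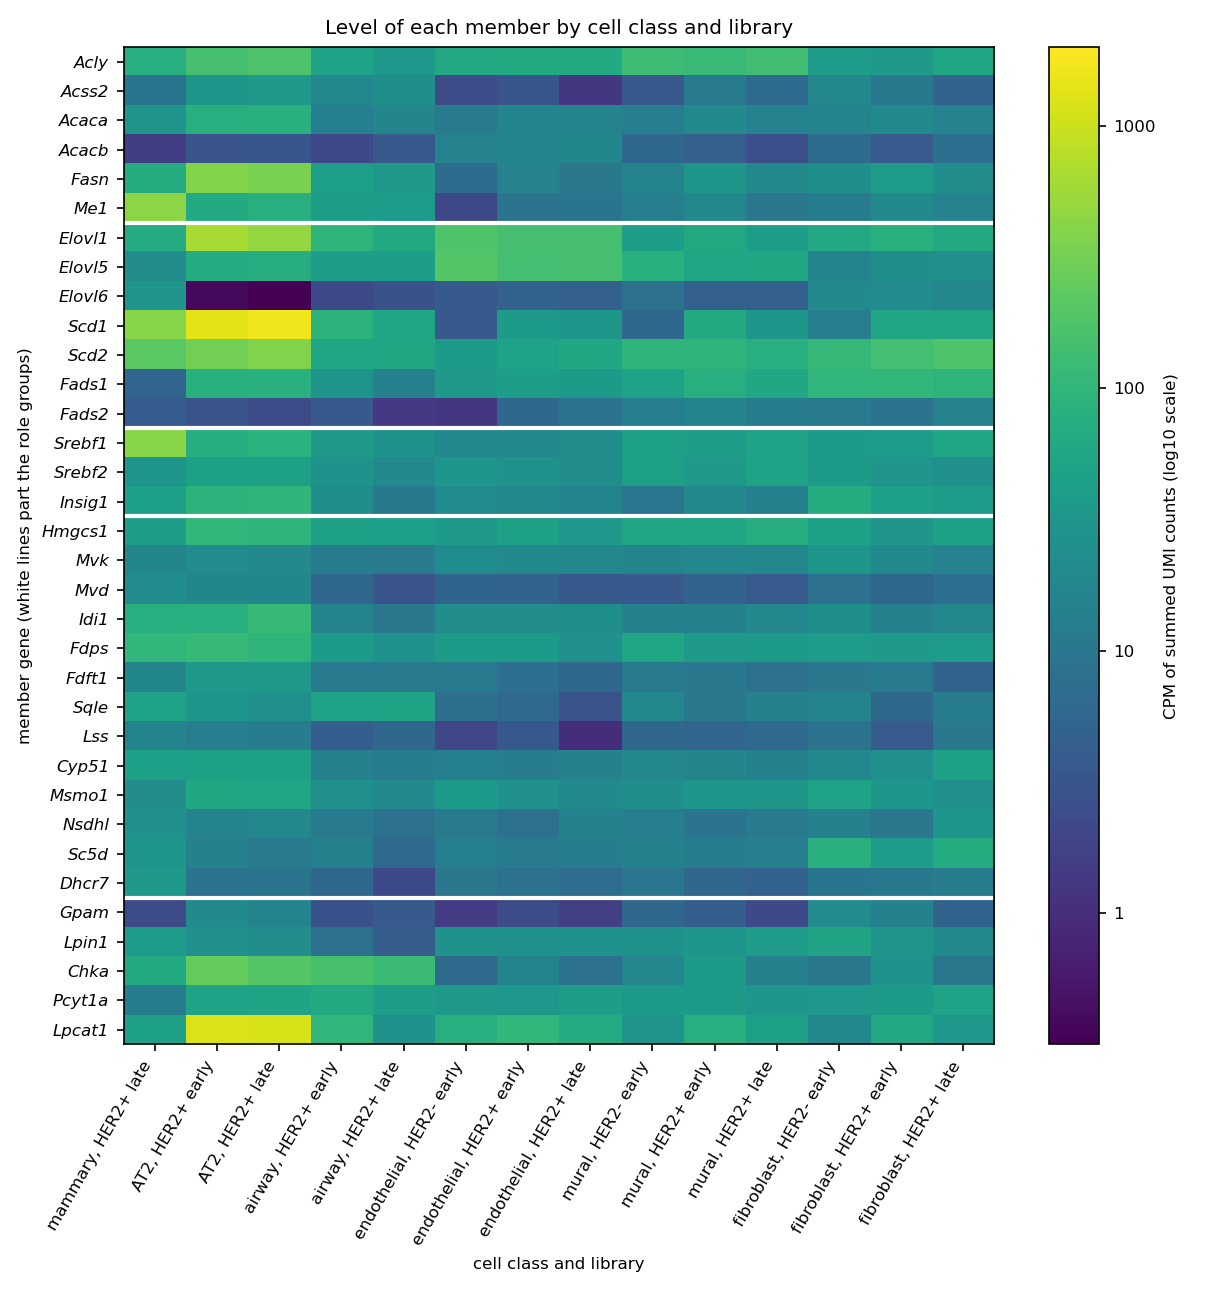
Level of each of the 34 members (rows, in role groups) in each class and library (columns), as CPM of summed UMI counts on a log10 colour scale; Lss in late endothelial cells, at 0 counts, is drawn at the floor of 3 counts. The AT2 columns are the brightest for Scd1 (1375 and 1654 CPM) and Lpcat1 (1275 and 1175 CPM), and Elovl6 is darkest there.

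Among the genes of supply and core fatty acid synthesis, 5 of 6 were highest in AT2 cells in both libraries. Fasn, the fatty acid synthase gene (ENSMUSG00000025153, chromosome 11, 120805846 to 120824547, minus strand, GRCm38), stood at 390 CPM in early and 346 in late AT2 cells, and at 15.3 and 10.6 CPM in endothelial, 32.4 and 19.7 in mural, 39.3 and 23.3 in fibroblast and 44.2 and 35.2 in airway cells. AT2 cells were above every other lung class in both libraries, at 25.5-fold over endothelial cells in the early library (interval 21.02 to 31.3) and 32.6-fold in the late (23.1 to 47.7). Acaca, the cytosolic acetyl-CoA carboxylase, was at 79.9 and 80.3 CPM in AT2 cells and at 13.8 to 20.4 CPM in the other 4 classes. Acly, which makes acetyl-CoA from citrate, was at 151 and 175 CPM in AT2 cells and close behind in mural cells at 119 and 139, a ratio of 1.28 (1.17 to 1.39) and 1.26 (1.16 to 1.38). Its lowest levels were 35.4 CPM in early fibroblasts and 33.8 in late airway cells. Acacb, whose carboxylase sits at the mitochondrion and is known for restraining fatty acid oxidation, went the other way. It was highest in endothelial cells, at 16.5 and 17.6 CPM against 3.07 and 3.31 in AT2 cells.

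The desaturase Scd1 (ENSMUSG00000037071, chromosome 19, 44394455 to 44407879, minus strand), which puts a double bond into stearate and palmitate, was the member with the highest AT2 level, 1375 CPM in the early and 1654 in the late library. It was at 32.8 to 91.4 CPM in the other lung classes, so AT2 cells were 15.05 to 50.4-fold higher. Single AT2 cells of the early library spanned 269 CPM at the 10th percentile, 1023 at the median and 2889 at the 90th. Its neighbour Scd2 (chromosome 19, 44293674 to 44306864) was spread more evenly, at 310 and 381 CPM in AT2 cells, 146 and 181 in fibroblasts and 49.96 and 59.3 in endothelial cells. Elovl1, an elongase of very long chains, was at 626 and 480 CPM in AT2 cells and at most 151 in the other lung classes of these libraries. Other elongases had other leading classes. Elovl5, which extends polyunsaturated chains, was highest in endothelial cells at 145 and 151 CPM, against 68.7 and 74.1 in AT2 cells. Elovl6 (ENSMUSG00000041220, chromosome 3, 129532355 to 129638495), which extends palmitate to stearate, had 11 counts in the 3939 early and 11 in the 3996 late AT2 cells (0.380 and 0.301 CPM), and 21.6 and 18.1 CPM in fibroblasts. AT2 cells thus carried 0.0176 (0.00792 to 0.0365) and 0.0166 (0.00588 to 0.0505) of the fibroblast level. The desaturases of polyunsaturated chains were led by fibroblasts for Fads1 (102 and 93.1 CPM), while Fads2 reached 2.43 to 16.3 CPM across AT2, mural, endothelial and fibroblast cells with its lowest level of these in AT2 cells.

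Of the regulators, Srebf1 was at 72.8 and 84.1 CPM in AT2 cells and 18.8 to 54.3 in the other lung classes. Srebf2 varied least: 46.3 and 46.0 CPM in AT2 cells and 35.4 and 49.9 in mural cells, the leading class in the late library, with a late AT2 over mural ratio of 0.923 (0.797 to 1.07). Insig1, an endoplasmic reticulum anchor of these factors, was at 90.7 and 97.3 CPM in AT2 cells and at 11.0 to 44.7 in the others.

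The 13 sterol genes were highest in AT2 cells in 10 cases in the early and 8 in the late library. Hmgcs1, the cytosolic HMG-CoA synthase (ENSMUSG00000093930, chromosome 13, 119690379 to 119708260), stood at 104 and 94.1 CPM in AT2 cells, against 53.8 and 72.5 in mural and 46.4 and 34.1 in endothelial cells. Idi1, the isopentenyl diphosphate isomerase, reached 79.7 and 112 CPM in AT2 cells and 10.0 to 24.9 elsewhere. The exceptions were held by both libraries in 3 genes. Sqle, squalene epoxidase, was highest in airway cells at 50.05 and 52.5 CPM, against 31.0 and 25.7 in AT2 cells. Sc5d, lathosterol desaturase, was highest in fibroblasts at 38.5 and 72.4 CPM, against 14.3 and 11.5 in AT2 cells, and fibroblasts of the HER2-negative library were at 82.4 CPM. Dhcr7, the last enzyme of cholesterol synthesis by one route, was at 10.8 and 12.9 CPM in fibroblasts and 8.84 and 9.26 in AT2 cells. Its fibroblast levels rest on few counts, and its AT2 over fibroblast ratio did not reach the 1.5-fold threshold in either library.

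Lpcat1 (ENSMUSG00000021608, chromosome 13, 73467197 to 73516422), the acyltransferase that remodels phosphatidylcholine to the dipalmitoyl form, was at 1275 and 1175 CPM in AT2 cells and at 28.8 to 105 in the others. Chka, choline kinase, was at 249 and 195 CPM in AT2 cells, 156 and 124 in airway cells and 8.29 to 37.3 in the stromal and vascular classes. Pcyt1a, the rate-limiting enzyme of phosphatidylcholine synthesis, hardly separated the classes: it was at 48.2 and 52.9 CPM in AT2 cells, 66.7 and 41.1 in airway cells and 31.7 to 49.1 in the others. Lpin1, a phosphatidate phosphatase, was highest in mural cells at 31.4 and 39.6 CPM.

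Within the AT2 class the sterol genes went with Scd1. AT2 cells of each library were ranked by the share of their UMIs on Scd1. The cells with the highest shares (Scd1-high) were compared with as many of the lowest shares (Scd1-low), 1313 cells each in the early and 1332 in the late library, leaving out those between. Scd1 itself, which set these groups, was at 2714 against 387 CPM in the early and 3252 against 533 in the late library. Of the 33 other members, 19 were at least 1.5-fold higher in Scd1-high cells of both libraries and 0 were lower in both, where 1.09% of all 12330 genes tested were higher in both and 8.48% lower in both. The median log2 ratio was 0.64 and 0.76, against -0.12 and -0.13 over all genes tested. All 13 sterol genes were among the 19, with 3 of the 6 other elongation and desaturation genes (Scd2, Fads1, Fads2), 2 of 6 core genes (Fasn, Acacb), 1 of 3 regulators (Insig1) and 0 of 5 phospholipid genes. Acacb had only 89 counts in all early AT2 cells, and its early interval holds 1.

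Fdps, farnesyl diphosphate synthase, was at 159 CPM in Scd1-high and 75.9 in Scd1-low cells of the early library, a ratio of 2.10 (1.92 to 2.30), and at 148 and 61.4 in the late, 2.41 (2.21 to 2.63). Hmgcs1 was at 138 against 76.8 CPM, 1.80-fold (1.64 to 1.97), and 127 against 69.6, 1.83-fold (1.68 to 1.99). Fasn lay just past the threshold at 1.53 (1.46 to 1.61) and 1.54 (1.47 to 1.60), and Acly just short of it at 1.41 (1.31 to 1.52) and 1.48 (1.39 to 1.57). Unlike Insig1, the other regulator genes were close in both groups: Srebf1 had ratios of 1.19 and 1.13, and Srebf2 of 1.05 and 1.14. None of the 5 phospholipid genes reached 1.5-fold in either direction, and 3 were above and 2 below 1 in each library (median ratios 1.25 and 1.13). Those below were Chka and Pcyt1a. Chka was at 220 against 270 CPM, a ratio of 0.813 (0.767 to 0.861), in the early and 157 against 228, 0.687 (0.648 to 0.729), in the late library, and Pcyt1a had ratios of 0.893 (0.779 to 1.02, an interval that holds 1) and 0.730 (0.652 to 0.816).

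**Figure D2:**
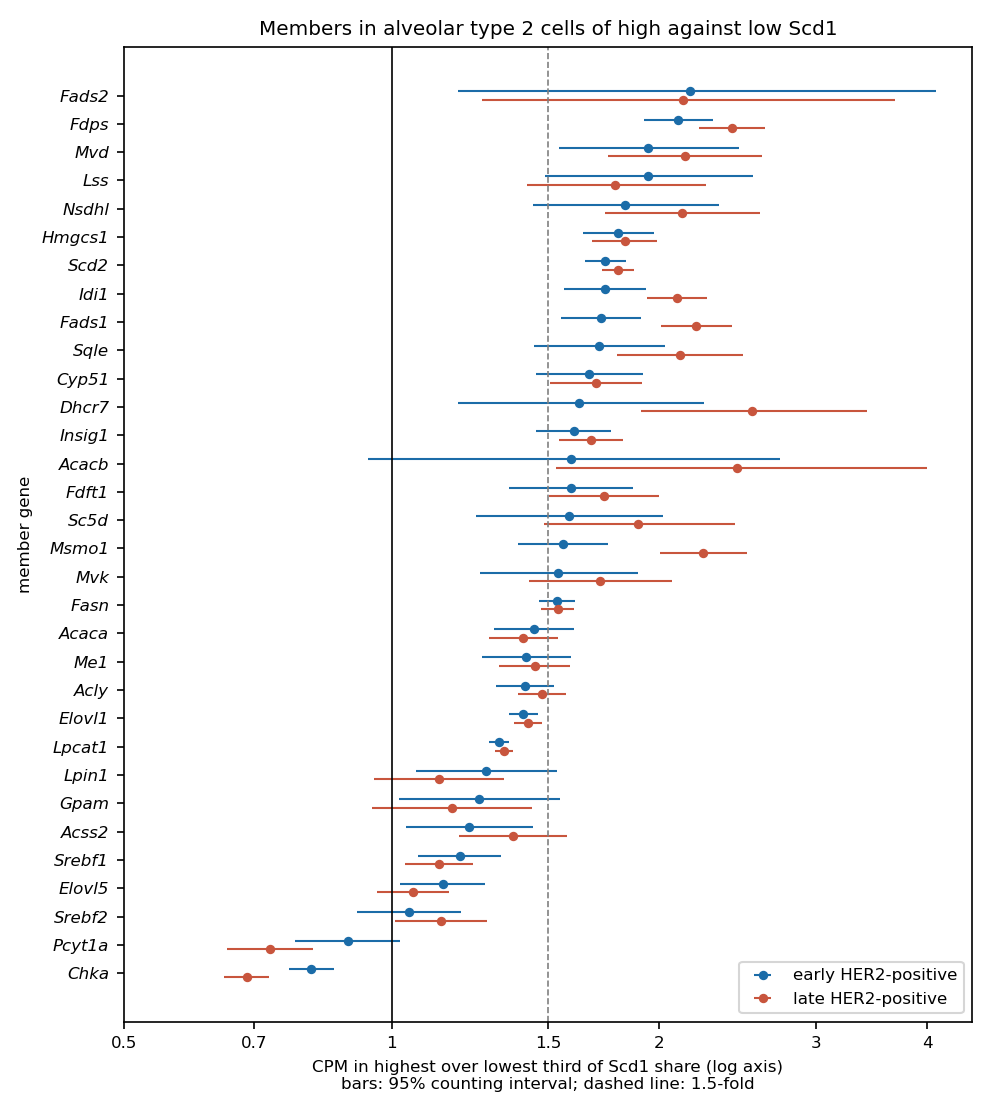
Ratio of CPM in Scd1-high over Scd1-low AT2 cells, per member, on a log axis, with points for the early and late HER2-positive libraries and bars for the 95% counting interval (Scd1, which set the groups, and Elovl6, with few counts, are left out). The 13 sterol genes lie right of the dashed 1.5-fold line in both libraries, and the points of Chka and Pcyt1a lie left of 1.

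Beside this, the groups were close in depth, with median UMIs of 7120 in Scd1-high and 6954 in Scd1-low cells of the early library and 8624.5 and 8966.5 in the late. The mural gene Acta2 was lower in Scd1-high cells (82.8 against 364 CPM in the early and 6.78 against 38.8 in the late library), and the lamellar body gene Lamp3 higher (1180 against 857 and 1363 against 1042 CPM). Their part in the result was not tested. With cells limited to 3000 to 10000 UMIs the count was 17 of 33, and with each cell thinned to 1000 UMIs it was 7. At a threshold of 2-fold it was 2. Of 82 other genes of the pathways, 75 had enough counts in each library. Early Scd1-high cells had 7 of them higher and late ones 10, where 2.92% and 3.15% of all genes tested were.

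Early and late AT2 cells differed little in these genes. None of the 34 members reached 1.5-fold in either direction, where 15.3% of 14230 genes tested were higher in early cells and 3.66% lower. The ratios ran from 0.712 for Idi1 (0.676 to 0.749) to 1.30 for Elovl1 (1.28 to 1.33), with a median log2 ratio of 0.01 against 0.10 over all genes. Scd1 was 0.832 of its late level (0.821 to 0.842), Fasn 1.13 (1.10 to 1.15) and Lpcat1 1.09 (1.07 to 1.10). Of the 82 other pathway genes 3 were higher and 2 lower, with Fabp4, a fatty acid binding protein gene of endothelial cells, highest at 7.56 against 1.83 CPM. The background counts, taken from barcodes of 1 to 100 UMIs, are given below beside the classes they touch.

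In mural cells 9 members were higher in the early library and 0 lower (all genes tested 12.7% and 6.57%). Chka was at 37.3 against 14.5 CPM (2.57-fold, 1.91 to 3.51), Scd1 at 65.2 against 32.9 (1.98-fold, 1.61 to 2.44), Me1, malic enzyme, at 18.7 against 10.1 and Lpcat1 at 79.2 against 46.2. With background taken off, nothing was left of Scd1 in the mural cells of either library. The log2 ratio, which turned from 0.99 to -0.27, then compares only the floors of 3 counts and carries no Scd1 level. The interval left out 1 for 7 of the 9. Of the 9, 8 had their highest level in AT2 cells in both libraries, as had 21 of all 34 members. The other, Acacb at 4.68 against 2.70 CPM, was highest in endothelial cells. The surfactant gene Sftpa1 moved with the 9 members, at 882 CPM in early and 349 in late mural cells, and its part was not tested. The 13 sterol genes had 0 calls in mural cells. In airway cells 10 members were higher and 1 lower (20.5% and 5.93%), and among those with at least 50 counts the highest were Lpcat1 at 102 against 28.8 CPM (3.53-fold, 2.60 to 4.83) and Insig1 at 24.7 against 11.0 (2.25-fold, 1.30 to 3.97). On fewer counts, Dhcr7 (2.54-fold) and Sc5d (2.27-fold) lay between them, and the interval of Dhcr7 holds 1. Beside this, Sftpa1 was at 2916 CPM in early and 2284 in late airway cells. Airway markers summed to 113406 CPM in the early and 194617 in the late airway class, and the split was 7 higher and 3 lower with the median-of-ratios scaling, which moved the median of all genes by -0.18 on the log2 scale, 7 and 2 without the 20 top genes, and 9 and 3 with the mean of per-cell CPM.

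In endothelial cells 5 members were higher in the early library and 2 lower (11.9% and 5.81%). Chka was at 16.6 against 8.29 CPM (2.003-fold, 1.29 to 3.23), Lpcat1 at 105 against 68.3 and Sqle at 6.37 against 2.98, and Nsdhl, a sterol dehydrogenase, at 8.598 against 14.6 (0.589, 0.391 to 0.893). Lss, lanosterol synthase, had 0 counts in the late library and was at least 3.58-fold higher at the floor of 3 counts. Fibroblasts had 6 higher and 7 lower (16.4% and 15.1%), from only 71 late cells, and without each gene's top cell the split turned to 10 higher and 4 lower. Of the 7 lower members 5 were sterol genes, among them Sc5d at 38.5 against 72.4 CPM (0.532, 0.328 to 0.877) and Nsdhl at 10.0 against 31.0 (0.323, 0.136 to 0.773).

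**Figure D3:**
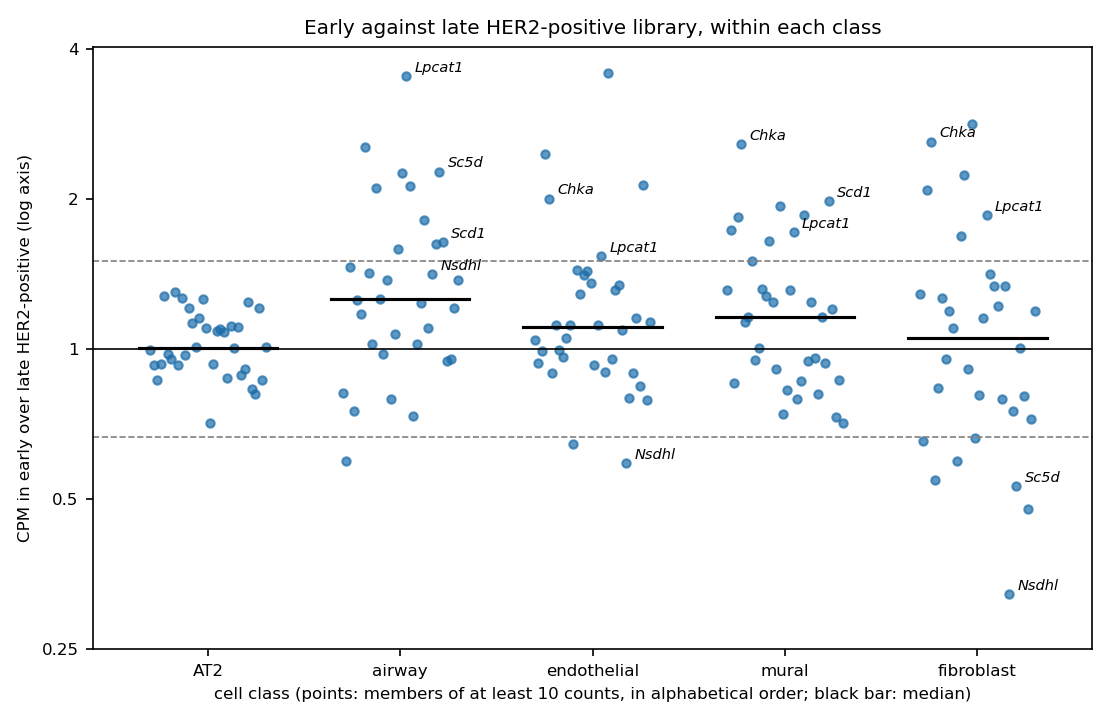
Ratio of CPM in the early over the late HER2-positive library for each member with at least 10 counts, by class, on a log axis; the black bar is the median and dashed lines mark 1.5-fold. All AT2 points lie between 0.712 and 1.30, while those of the other classes spread past the lines, and the topmost endothelial point (Lss, 0 late counts) is a lower bound.

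The mammary cells of the late library were set against the AT2 cells of the same library. Of 34 members, 8 were higher in mammary cells and 18 lower, where 47.2% of 13746 genes tested were higher and 20.4% lower, and the median log2 ratio was -0.91 against 0.50 over all genes. With the median-of-ratios scaling, which moved the median of all genes by -0.70, the split was 5 and 23, and without the 20 top genes of either class, 5 and 22. Elovl6 was at 30.3 CPM in mammary and 0.301 in AT2 cells, 101-fold (54.2 to 208). Me1, which supplies NADPH, was at 431 against 75.5 CPM, 5.70-fold (5.36 to 6.07), and Srebf1 (ENSMUSG00000020538, chromosome 11, 60199089 to 60222581) at 416 against 84.1, 4.94-fold (4.64 to 5.25). All 3 levels were also above those of the other 5 late classes.

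Of the 6 supply and core genes, Me1 was higher and the other 5 were lower in mammary cells, and so was Scd1. Fasn was at 71.7 against 346 CPM, a ratio of 0.207 (0.183 to 0.234), Scd1 at 426 against 1654, 0.257 (0.245 to 0.271), Acly at 77.3 against 175, 0.442 (0.391 to 0.497), and Acaca at 30.8 against 80.3, 0.384 (0.315 to 0.463). Of the 5 phospholipid genes 4 were lower: Lpcat1 at 46.5 CPM was 0.0396 of the AT2 level (0.0339 to 0.0460), Gpam 0.151, Pcyt1a 0.240 and Chka 0.332, while Lpin1 was 1.66-fold higher (1.38 to 1.99). The 13 sterol genes were split, with a median log2 ratio of 0.12 against 0.50 over all genes. Dhcr7 at 34.9 against 9.26 CPM, Sc5d at 31.4 against 11.5 and Sqle at 48.1 against 25.7 were higher, and Hmgcs1, Fdft1 (squalene synthase) and Msmo1 (methylsterol monooxygenase) were lower at 0.454, 0.505 and 0.436. Among the other pathway genes 30 of 78 were higher and 23 lower, beside the 47.2% and 20.4% of all genes. The lipogenic regulators Mid1ip1 (17.3 against 408 CPM) and Cebpa (14.1 against 204) were lower, and the ethanolamine kinase gene Etnk1 (1058 against 77.7 CPM) and the acyltransferase gene Lpcat2 (32.99 against 2.62) were higher. Sftpa1 was at 648 CPM in the mammary class and 28905 in AT2 cells, and median UMIs were 22179 and 8837.

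**Figure D4:**
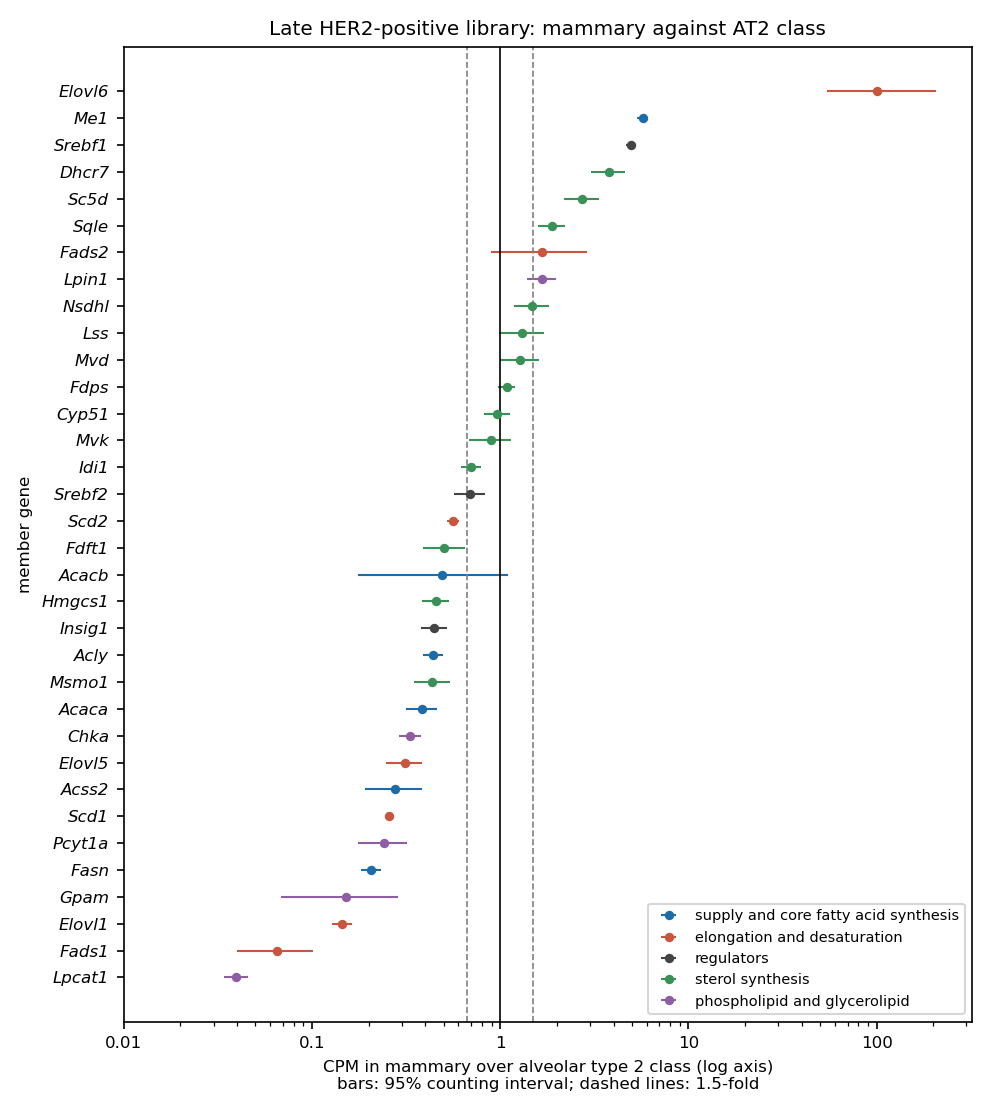
Ratio of CPM in the mammary over the AT2 class of the late HER2-positive library for each of the 34 members, sorted, on a log axis, with 95% counting intervals and colours for the role groups. Elovl6, Me1 and Srebf1 are highest at 101, 5.70 and 4.94, and Lpcat1 is lowest at 0.0396.

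The HER2-negative and HER2-positive libraries of early mice were compared in the 3 stromal and vascular classes. In endothelial cells 1 member was higher in the HER2-negative library and 7 lower (all genes tested 6.96% and 13.0%), in mural cells 4 and 8 (12.2% and 13.9%), and in fibroblasts 11 and 5 (12.7% and 18.4%). These splits depend on whether background is taken off: with a share of 10% of each class total taken off as background they were 8 higher and 6 lower in endothelial, 8 and 4 in mural and 15 and 3 in fibroblast cells. Scd1 was at 3.66 CPM in HER2-negative and 37.8 in HER2-positive endothelial cells, a ratio of 0.0968 (0.0724 to 0.128), at 6.15 and 65.2 in mural cells, 0.0944 (0.0304 to 0.223), and at 13.5 and 54.7 in fibroblasts, 0.247 (0.167 to 0.362). With the mean of per-cell CPM the split was 0 and 7 in endothelial and 5 and 6 in mural cells. Fasn and Chka were lower in all 3 classes, and Lpcat1 in mural cells (0.373) and fibroblasts (0.299).

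These members are the ones highest in AT2 cells, and the background of the libraries moved with them. Scd1 was at 55.9 CPM in barcodes of 1 to 100 UMIs of the HER2-negative library, against 749 (early) and 1124 (late) for the HER2-positive libraries. Sftpa1 was at 13.4 against 458 CPM in endothelial, 1.23 against 882 in mural and 2.30 against 353 in fibroblast cells, HER2-negative against HER2-positive. In the early HER2-positive library there were 5.08 Scd1 counts per 100 Sftpa1 counts in AT2 cells, 4.48 in the background, 3.13 in airway, 7.39 in mural, 8.25 in endothelial and 15.5 in fibroblast cells. With the same share taken off as background, the log2 ratio of Scd1 went from -3.40 to 0.03 in mural cells. In fibroblasts it went from -2.02 to 1.93, and Fasn reversed in all 3 classes. That share was set and not estimated. It left no Scd1 in HER2-positive mural cells and fibroblasts and no Fasn in HER2-positive endothelial cells. The new ratios there rest on the floor of 3 counts. For Lpcat1 in that library the counts per 100 Sftpa1 counts were 3.58 in the background, 3.48 in airway, 8.98 in mural, 17.7 in fibroblast and 22.9 in endothelial cells. How much of the Scd1, Lpcat1 and Fasn outside AT2 cells was made in the cell and how much was background was not tested.

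**Figure D5:**
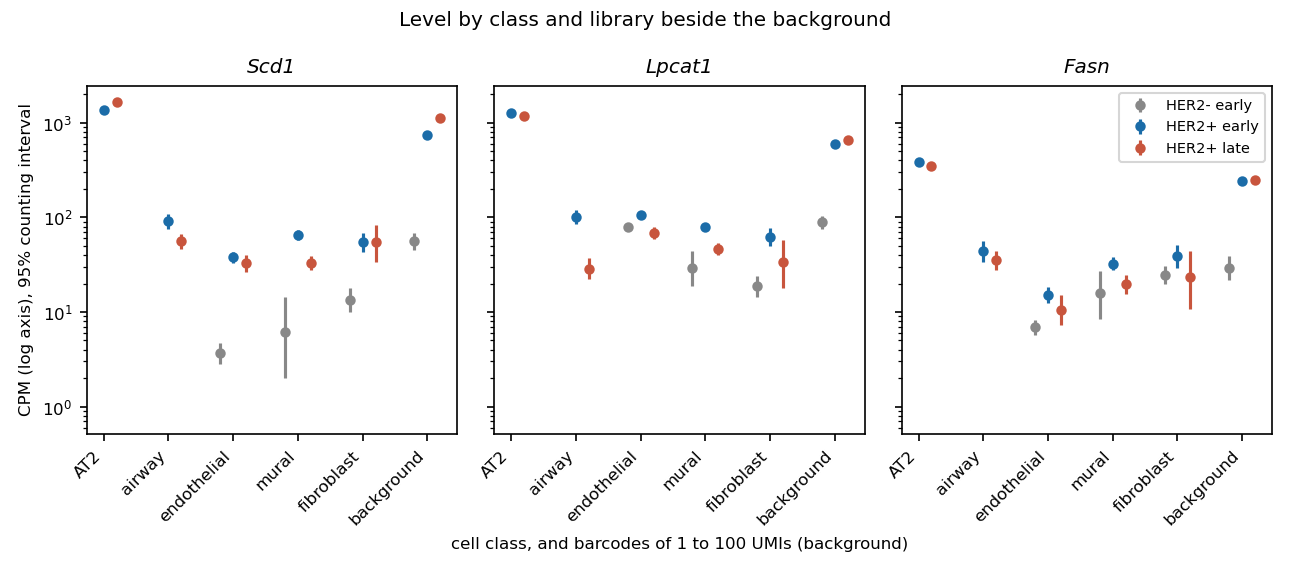
CPM of Scd1, Lpcat1 and Fasn by class and library, and in barcodes of 1 to 100 UMIs, on a log axis with 95% counting intervals (AT2 and airway classes of the HER2-negative library hold under 50 cells and are not drawn). The background follows the AT2 level in the HER2-positive libraries, with Scd1 at 749 and 1124 CPM, and is lower in the HER2-negative library at 55.9.

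Sterol genes showed the opposite direction in fibroblasts: 7 of 13 were higher in the HER2-negative library and 0 lower (all genes tested 12.7% and 18.4%), with a median log2 ratio of 0.62 against -0.05 over all genes. Sc5d was at 82.4 against 38.5 CPM (2.14-fold, 1.58 to 2.95), Sqle at 16.1 against 6.16 (2.61-fold, 1.24 to 6.34), Hmgcs1 at 47.9 against 30.8 (1.56-fold, 1.10 to 2.26) and Msmo1 at 49.6 against 31.6 (1.57-fold, 1.11 to 2.27). The interval left out 1 for 5 of these 7 sterol genes. Insig1 was also higher, at 70.3 against 44.7 CPM. In mural cells 3 of 13 sterol genes were higher and 0 lower (12.2% and 13.9%), but the interval left out 1 for only 1 of the 3. In endothelial cells 1 was higher and 1 lower, near the share of all genes (6.96% and 13.0%).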

How the data were processed

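The deposited values are UMI counts per gene and barcode, not normalized and not filtered to cells, with 27998 genes and 6794880 barcodes per library. Per the file headers, software version 3.1.0 wrote the matrices. The submitters' processing notes give mm10 as genome build. The aligner is not given in the sources used here, nor is the annotation. Total UMIs were 25610135 in the HER2-negative library, 49248126 in the early HER2-positive and 54961019 in the late HER2-positive one.

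The members and gene lists were chosen with earlier results of these data known. Classes were assigned in this order: mammary (Csn3 and Wfdc18 at least 1% of UMIs), AT2 (Sftpc at least 10%), airway (Cyp2f2 and Foxj1, at least 3 UMIs), endothelial (Cldn5 and Cdh5, 2), mural (Higd1b, Cox4i2 and Myh11, 2) and fibroblast (Pdgfra and Col1a2, 2). Possible doublets were kept, and barcodes meeting more than 1 rule were left out as an alternative. Counts were summed per library and class and expressed as CPM, with exact Poisson intervals, and ratios with exact conditional intervals (scipy 1.17.1). A count of 0, also one left after taking background off, was given a floor of 3 counts per class. With 1 library per group there is no test. Named members are 13 chosen genes and the 6 highest and 6 lowest ratios with at least 50 counts per comparison, and of the other pathway genes a few chosen ones and the 3 highest and 3 lowest, some of which are not reported here. Values of other members are given as description. Ratios were tested on simulated data with known fold changes. The alternatives were other UMI, mitochondrial, Sftpc and count minimums, other scalings, background removal, a 2-fold threshold, and leaving out each gene's top cell, barcodes of several classes or shared barcodes. Gene coordinates come from GENCODE and promoters from RefSeq (GRCm38.p6). In 24 of 28 members with a window, the window's end read into a transcript start.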

Additional observations from a re-analysis of the deposited data

Results flagged for a closer look

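Sc5d, the lathosterol desaturase gene, had opposite early over late ratios in a pair of classes of the same libraries. It was 2.27-fold higher in early than in late airway cells (interval 1.09 to 4.86) and at 0.532 of the late level in fibroblasts (0.328 to 0.877). The difference between the classes was not tested, and the late fibroblasts number 71.

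Scd2 was high in barcodes that met none of the class rules and so enter no comparison, at 374 CPM in the early HER2-negative, 783 in the early HER2-positive and 728 in the late HER2-positive library. The AT2 classes had 310 and 381 CPM. The same barcodes held Ager, a gene of alveolar type 1 cells, at 6362, 13661 and 6891 CPM. In the HER2-negative library they also held Hbb-bs, a haemoglobin gene, at 292269 CPM, and in the late library the casein gene Csn1s1 at 1762 CPM.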

How the results depend on the processing

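Counts of members called were recomputed under 17 alternatives, of which leaving out barcodes shared between libraries was chosen after seeing the data. No paired analysis was possible because each group has 1 library. Of 219 named ratios past 1.5-fold, 206 kept their sign under every alternative run and 13 changed it. The counts of AT2 members higher than in each other lung class stayed within 1.5 times under every alternative run, and so did all counts under both other UMI minimums, no count minimum and without shared barcodes. Depth limits classes with few UMIs in all, such as the late fibroblast class with 386754 and the HER2-negative mural class with 812576. The cause of the moves below was not tested.

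In the early over late ratios, higher and lower members changed as follows. At an AT2 rule of 15% Sftpc, endothelial cells had 3 higher and 1 lower, and at 5% airway cells had 6 and 3 and mural cells 5 higher. With background taken off, AT2 cells had 1 higher, airway cells 17 higher and endothelial cells 8 higher and 4 lower. Without barcodes that met more than 1 class rule, airway cells had 0 lower and mural cells 3 lower. A 2-fold threshold gave 6 higher and 0 lower in airway cells, 0 lower in endothelial cells, 1 higher in mural cells and 2 lower in fibroblasts. A minimum of 50 counts gave 5 higher and 0 lower in airway cells, 3 higher in endothelial cells and 2 higher and 4 lower in fibroblasts. The mean of per-cell CPM gave 1 higher in AT2, 5 higher in mural and 3 lower in airway cells. Lower airway members numbered 3 with the median-of-ratios scaling, 2 without the 20 top genes and 2 at a mitochondrial share under 10%, where endothelial cells had 1 lower. Without the top cell of each gene, fibroblasts had 10 higher and 4 lower.

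In mammary over AT2 cells, 5 were higher with the median-of-ratios scaling, without the 20 top genes and at 2-fold. AT2 members below airway cells numbered 1 at an AT2 rule of 15% Sftpc, without the 20 top genes, without barcodes of more than 1 class, at 2-fold, at a minimum of 50 counts and with the median-of-ratios scaling. Those below endothelial cells numbered 2 under both scalings, and those below mural cells 1 at a minimum of 50 counts. With Scd1, 2 members were higher at 2-fold and 7 after thinning to 1000 UMIs.

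In HER2-negative over HER2-positive cells, taking background off gave 8 higher in endothelial cells, 8 higher and 4 lower in mural cells and 3 lower in fibroblasts. Endothelial cells had 0 higher at 2-fold, with the mean of per-cell CPM and without barcodes of more than 1 class. At 2-fold, mural cells had 0 higher and 5 lower and fibroblasts 3 and 3. Mural cells had 2 higher at a minimum of 50 counts and 2 without the top cell of each gene.

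Single log2 ratios changed sign in 14 cases. With background taken off, the HER2-negative over HER2-positive ratio of Fasn went to 3.31 in endothelial cells, 0.65 in mural cells and 0.52 in fibroblasts, that of Lpcat1 to 0.10 in mural cells and 1.99 in fibroblasts, and that of Scd1 to 0.034 and 1.93. Those of Scd1 and that of Fasn in endothelial cells rest on the floor of 3 counts in the HER2-positive library. The early over late ratio of Scd1 went to -0.27 in mural cells and that of Lpcat1 to -1.50 in fibroblasts. The former compares the floors of 3 counts of both libraries, and the latter rests on the floor of the late library. With the median-of-ratios scaling the AT2 over mural ratio was 0.29 for Acacb in the early and 0.18 for Lpin1 in the late library, and the late AT2 over fibroblast ratio of Nsdhl was 0.16. Without the 20 top genes the early AT2 over mural ratio of Acacb was 0.026. At an AT2 rule of 5% Sftpc the early over late ratio of Scd1 in airway cells was -0.30.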
